A study of Mus musculus with 6 samples.

Results

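The transcripts described here are those of protein-coding genes that were silent in untreated mouse embryonic fibroblasts and present when TNF-α, cycloheximide and z-VAD-fmk were given together. The genes were chosen by their measured levels: a gene was included when its deposited RPKM, that is its read count scaled to gene length and library total, was at most 0.05 in both control libraries and at least 0.5 in both libraries of the triple treatment. Genes of several large families and of a set of inflammatory genes were left out by name, which removed 14 of 158 genes. This left 144 genes out of 8030 protein-coding genes that were silent in control, and out of 21886 protein-coding genes in all. The rule set the triple treatment against control, so it takes in genes that TNF-α with cycloheximide alone had already switched on, and the name of z-VAD in the set does not mean that z-VAD was needed for each gene.

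The study sequenced poly(A) RNA from embryonic fibroblasts of C57BL/6 mice at passages 5 to 7. The 3 groups, with 2 libraries each, were all 3 agents, namely TNF-α, cycloheximide and z-VAD-fmk, given at once (TCZ), the same without z-VAD-fmk (TC), and phosphate-buffered saline (control). Neither doses nor the length of treatment is known here, and TNF-α and cycloheximide were never given apart. The labels do not state separate cultures for the 2 libraries of a group, so a p-value reflects how far these libraries vary, and that variation may be technical.

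TNF-α signals through its receptors to NF-κB and to kinases that switch on inflammatory genes. Cycloheximide stops protein synthesis, which also stops the making of short-lived inhibitors that normally end such a response, and it makes cells sensitive to death by caspases. z-VAD-fmk blocks caspases, and cells given all 3 agents can die by necroptosis, in which the membrane ruptures. Genes that belong to other lineages, such as odorant receptors or germ cell genes, are normally held silent in fibroblasts.

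Library totals were 52909926 and 24922627 counts in TCZ, 49560566 and 50854810 in TC, and 46509236 and 26834352 in control. The second TCZ and second control libraries were thus the shallower ones. All 14 fibroblast markers were at or above 1 RPKM in every library, with summed levels of 10618 to 10967 RPKM in TCZ, 9953 to 10028 RPKM in TC and 12383 to 12459 RPKM in control. In bulk RNA, fewer cells of a type and less RNA per cell cannot be told apart.

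Promoter sequences are shown for 4 of the genes because they hold the letters of known response elements and because the genes differ in where they peaked: Madcam1 and Neurl3 were highest in TC, Ifnab was present in TCZ, and Cd300c was present in both. RefSeq start sites (GRCm38.p6) were matched for 111 of the 144 genes, giving 127 windows. Each sequence is the 250 bases before the start, 5′ to 3′ on the gene's strand, and capitals mark motif matches. Madcam1 lies at chr10:79664309-79664558 (+), Neurl3 at chr1:36273426-36273675 (-), Ifnab at chr4:88691269-88691518 (-) and Cd300c at chr11:114960508-114960757 (-). For Madcam1 and Neurl3 the RefSeq start lies inside the gene as the deposited table draws it.
Madcam1: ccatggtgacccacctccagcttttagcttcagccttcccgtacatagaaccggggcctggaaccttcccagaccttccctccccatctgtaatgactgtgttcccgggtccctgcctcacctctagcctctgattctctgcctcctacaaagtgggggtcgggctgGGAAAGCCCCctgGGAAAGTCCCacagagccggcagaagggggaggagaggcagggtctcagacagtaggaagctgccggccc
Neurl3: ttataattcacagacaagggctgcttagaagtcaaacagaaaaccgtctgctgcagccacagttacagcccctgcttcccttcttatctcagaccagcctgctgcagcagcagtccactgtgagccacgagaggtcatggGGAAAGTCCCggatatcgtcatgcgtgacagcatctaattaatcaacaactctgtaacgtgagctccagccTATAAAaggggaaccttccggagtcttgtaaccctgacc
Ifnab: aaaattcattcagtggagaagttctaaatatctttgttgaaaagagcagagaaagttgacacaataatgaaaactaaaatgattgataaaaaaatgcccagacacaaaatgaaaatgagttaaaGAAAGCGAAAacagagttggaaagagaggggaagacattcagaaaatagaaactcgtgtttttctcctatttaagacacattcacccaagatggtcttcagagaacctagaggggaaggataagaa
Cd300c: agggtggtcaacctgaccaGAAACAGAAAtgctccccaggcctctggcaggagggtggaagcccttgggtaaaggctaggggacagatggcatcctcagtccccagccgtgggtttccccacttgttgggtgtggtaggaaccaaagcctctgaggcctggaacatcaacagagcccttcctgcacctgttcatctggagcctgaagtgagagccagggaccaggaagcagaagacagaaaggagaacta

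Madcam1 held a pair of κB matches, at 83 and 70 bases before its start, and Neurl3 held one at 110 bases before the start together with a TATA box at 39 bases; the κB letters stand there in reverse complement. Ifnab held a match to the interferon-stimulated response element at 126 bases before its start, and Cd300c at 231 bases. Letters were searched on both strands over windows of 300 bases (250 before and 50 after the start). The κB letters were GGGA or GGGG, then any base, then TTTCC, and they were found in 4 windows of the switched-on genes (3.15%), in 0.782% of the windows of silent genes not on in TCZ and in 0.807% of all windows. The 4 windows belonged to Madcam1, Neurl3, Pcsk2 and Spem1. The interferon element, GAAA, any 2 bases and GAAA again, stood in 3.15% of the genes' windows, in 4.07% of the windows of silent genes not on in TCZ and in 3.44% of all windows.

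For a pair of the other elements the direction depended on the windows set beside them. TATAAA was in 19.7% of the switched-on genes' windows, below the 22.1% of silent genes not on in TCZ and above the 13.6% of all windows. GGGCGG was in 29.1% of the genes' windows, above the 19% of silent genes not on in TCZ and below the 35.7% of all windows. The AP-1 letters TGANTCA were in 5.51% of the genes' windows, against 10.3% in silent genes not on in TCZ and 7.81% in all windows. The cAMP response element, TGACGTCA, was in 0 of the 127 windows, against 0.945% in silent genes not on in TCZ and 1.79% in all windows. The median ratio of observed to expected CpG was 0.299 in the genes' windows, against 0.205 in silent genes not on in TCZ and 0.581 in protein-coding genes of the table. These shares describe letters in a window and say nothing of binding.

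Most of the 144 genes were low even when on. Mean RPKM in TCZ ran between 0.520 and 15.8 with a median of 1.11, and the thresholds of the rule fixed the lower end. In TCZ, 5 genes reached 10 RPKM, 5 lay between 5 and 10, 23 between 2 and 5, 49 between 1 and 2, and 62 between 0.5 and 1. Mean RPKM in TC, which the rule did not use, ran between 0 and 18.8 with a median of 0.126. Mean RPKM in control had a median of 0.0036, and 64 genes had no count in either control library.

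**Figure D1:**
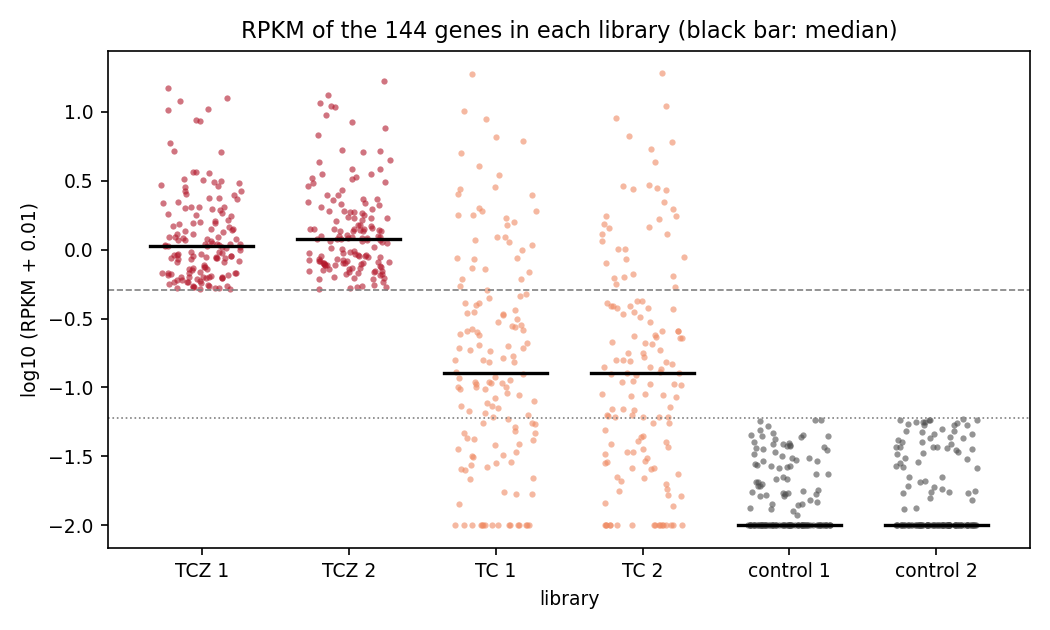
RPKM of the 144 genes in each of the 6 libraries, on a log10 scale after adding 0.01; each point is a gene and the black bar is the median. The dashed and dotted lines are the thresholds of 0.5 and 0.05 RPKM that chose the genes in TCZ and control, so the separation of those libraries is set by the choice, while the TC libraries, with medians of 0.117 RPKM in both, spread across the whole range.

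The rule asked for 0.5 RPKM in both TCZ libraries, so their agreement on which genes were on is built in. They differed in depth. The median gene had 157.5 counts in TCZ 1 and 86.5 in TCZ 2, 16.5 and 15.5 in TC 1 and TC 2, and 0 in both control libraries. The lowest counts were 14 in TCZ 1 and 6 in TCZ 2. In RPKM, TCZ 2 exceeded TCZ 1 for 101 of the 144 genes, with a median log2 ratio of 0.15, against 0.04 over all genes with enough counts. The per-gene log2 ratio between the TCZ libraries lay between -0.78 and 0.999.

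The lowest deciding TCZ values inside the rule were those of Crip3 (0.506 RPKM), Prr29 (0.508 RPKM), Grk1 (0.511 RPKM) and Fbxo43 (0.516 RPKM). The nearest genes outside were Cd164l2 (0.498 RPKM), Milr1 (0.496 RPKM), Defb35 (0.496 RPKM) and Masp2 (0.489 RPKM). At the control threshold the last genes inside were Slc25a18, Slc3a1, Strip2 and Tlr13, at 0.0482 to 0.0488 RPKM in the higher control library, and the first outside were Arhgap4, Cd83, Tmem236 and Nr3c2, at 0.0517 to 0.0569 RPKM. Cd83, a dendritic cell activation marker, was thus excluded by 1 control library although its TCZ libraries read 8.23 and 6.58 RPKM.

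The TC libraries show which of these genes were on without z-VAD-fmk. Of the 144 genes, 32 (22.2%) reached 0.5 RPKM in both TC libraries, 38 (26.4%) stayed at or below 0.05 RPKM in both, and 74 (51.4%) lay between. Among all control-silent protein-coding genes, before names were left out, 158 (1.97%) reached 0.5 RPKM in both TCZ libraries and 70 (0.872%) did so in both TC libraries. In the other direction, 17 of 6836 genes silent in both TCZ libraries reached 0.5 RPKM in both control libraries (0.249%), and 5 of 7387 genes silent in both TC libraries did (0.0677%).

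The comparisons of TC with control and of TCZ with TC were tested with edgeR's quasi-likelihood test and Benjamini-Hochberg adjustment over all 18563 genes that passed the count filter. Each of these comparisons has one side that chose the genes, low control or high TCZ, so the counts below lean upward by construction and are descriptions. All 144 genes passed the count filter, but 68 of them passed through their TCZ counts, since 76 passed when TC and control were filtered alone. In TC against control, 98 genes (68.1%) were called higher, 1 was called lower and 45 had no call, where 31.5% of all tested genes were called higher and 29.1% lower. In TCZ against TC, 123 genes (85.4%) were called higher, 8 (5.56%) lower and 13 had no call, where 28.2% of all tested genes were called higher and 27.9% lower.

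The 2 comparisons divide the genes into a few patterns. There were 77 genes higher in both comparisons, 45 with no call in TC against control that were higher in TCZ against TC, and 13 higher in TC with no further call in TCZ. Another 8 genes were higher in TC and then lower in TCZ than in TC. The median log2 fold change over the 144 genes was 4.19 in TC against control and 3.17 in TCZ against TC, beside a median of 0.02 over all tested genes in both. Of the 32 genes that were on in TC, 15 were called higher, 8 lower and 9 had no call in TCZ against TC. For the 38 genes at or below 0.05 RPKM in TC the thresholds themselves fix a large gap to TCZ, so their calls are not read. All 38 are among the 123 called higher, and the counts by role below include them and lean upward by construction. Those counts stand beside 85.4% of the 144 genes and 28.2% of all tested genes higher in TCZ against TC. In TC against control these shares were 68.1% and 31.5%.

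**Figure D2:**
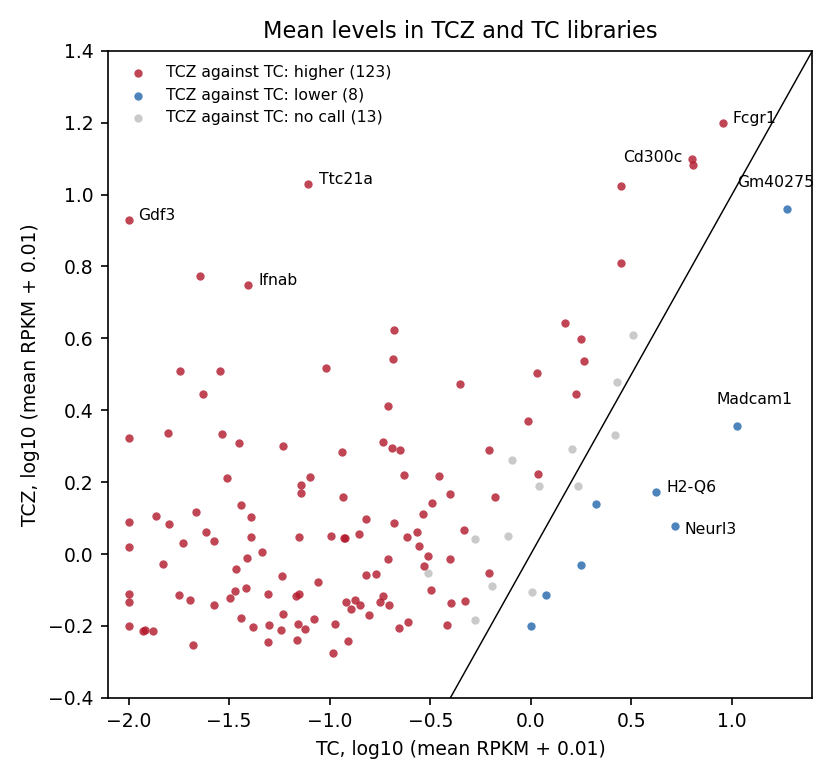
Mean RPKM in TCZ against mean RPKM in TC for the 144 genes, both as log10 after adding 0.01, coloured by the call in TCZ against TC (123 higher, 8 lower, 13 no call); the line marks equal levels. Genes such as Gdf3 and Ttc21a sit far to the left at about 8 to 11 RPKM in TCZ, while Madcam1, Neurl3, H2-Q6 and Gm40275 sit below the line.

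Receptors of immune and adhesive cells held 19 of the genes and included the highest. Fcgr1, the high-affinity receptor for IgG on myeloid cells, had 14.8 and 16.7 RPKM in TCZ, 8.92 and 9.03 RPKM in TC, and 0.0166 and 0 RPKM in control. It was on in every treated library, and the TCZ libraries lay above both TC libraries (log2 fold change 0.86 ± 0.09 SE, adjusted p = 4.64e-08 by edgeR's quasi-likelihood test). Its TC level was 934 times control by the ratio of library-scaled counts, with a counting interval of 258 to 7720 because control held 2 counts. Cd300c, an activating receptor of myeloid cells, showed the same order, with 12 and 13.1 RPKM in TCZ, 6.57 and 6.01 RPKM in TC, and 0 and 0.0384 RPKM in control (TCZ against TC log2 fold change 1.05 ± 0.15 SE, edgeR adjusted p = 4.06e-06).

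Other receptors of lymphoid and myeloid cells were near 0 in TC. Cd79b, a signalling chain of the B cell receptor, had 2.89 and 3.55 RPKM in TCZ, 0 and 0.016 RPKM in TC, and no counts in control. Clec12b, an inhibitory lectin receptor, had 2.02 and 2.15 RPKM in TCZ and no counts in TC, which makes it at least 194-fold higher in TCZ when TC is set to a floor of 3 counts over the group; control held 1 count. Icam2, an adhesion molecule of endothelium and leukocytes, had 2.16 and 2.14 RPKM in TCZ, 0.0257 and 0.0125 RPKM in TC, and 0 and 0.0237 RPKM in control. In each of these genes the TC and control libraries overlapped at the floor while both TCZ libraries stood above them.

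Klrb1a, a lectin receptor of natural killer cells, was on in both treatments, and all 4 treated libraries stood far above control. Its levels were 3.65 and 4.44 RPKM in TCZ, 3.47 and 2.95 RPKM in TC, and 0.0169 and 0 RPKM in control, and the TCZ against TC log2 fold change was 0.38 ± 0.21 SE (edgeR adjusted p = 0.142), which does not pass the threshold. Itgax, the CD11c integrin chain, had 0.66 and 0.903 RPKM in TCZ, 0.029 and 0.0188 RPKM in TC, and 0 and 0.00892 RPKM in control. Tlr13, an endosomal receptor for bacterial ribosomal RNA, had 0.593 and 0.66 RPKM in TCZ, 0.0452 and 0.0343 RPKM in TC, and 0.0482 and 0.0464 RPKM in control. Both were at or below 0.05 RPKM in TC, so the rule fixed a large gap to TCZ and their calls are not read. The log2 fold changes of TCZ against TC were 5.03 ± 0.52 SE and 4.005 ± 0.48 SE.

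Of the 19 receptor genes, 12 were called higher in TC against control, and 14 were called higher and 2 lower in TCZ against TC. The summed level of 15 macrophage and leukocyte markers was 17.3 and 18.5 RPKM in TCZ, 8.05 and 10.3 RPKM in TC, and 11.7 and 11.3 RPKM in control. Of those markers 2 were at or above 1 RPKM in every library and none was at 0 in all of them. Itgax is 1 of the 15, and of the 14 that were tested, 2 were higher and 0 lower in TC against control and 5 were higher and 0 lower in TCZ against TC. Whether they have a part in the receptor genes was not tested.

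The 2 receptor genes called lower in TCZ against TC were Madcam1 and H2-Q6. Madcam1, the addressin that lymphocytes use to enter gut tissue, had 2.03 and 2.5 RPKM in TCZ, 10.1 and 11.1 RPKM in TC, and 0.0134 and 0 RPKM in control. H2-Q6, a class I histocompatibility gene, had 1.73 and 1.23 RPKM in TCZ, 4.05 and 4.31 RPKM in TC, and 0.0219 and 0.038 RPKM in control. Both fell in TCZ against TC (log2 fold changes -2.19 ± 0.15 SE and -1.40 ± 0.29 SE, edgeR adjusted p = 4.75e-11 and 0.000267). H2-Q6 belongs to a family of near-identical genes, so reads may be divided among its copies and its level is uncertain.

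Among 12 genes for interferon and secreted factors all were called higher in TCZ against TC, and 5 were called higher in TC against control. Of the 12, 6 were at or below 0.05 RPKM in TC, where the rule fixed a large gap to TCZ. Over the 144 genes, 85.4% were called higher in TCZ against TC. Cilp2, a matrix protein of cartilage, was on in both treatments, with 12.7 and 11.5 RPKM in TCZ, 6.13 and 6.71 RPKM in TC, and 0.0107 and 0.0185 RPKM in control (TCZ against TC log2 fold change 0.97 ± 0.09 SE, edgeR adjusted p = 7.2e-09). Gdf3, a ligand of the TGF-β family made by pluripotent cells, had 8.51 and 8.41 RPKM in TCZ and not a single count in the TC or control libraries. Against a floor of 3 counts over the TC group, its TCZ level was at least 707-fold higher. It was 1 of 7 genes with no count in either TC library, and the next highest of these, Clec12b, averaged 2.09 RPKM in TCZ.

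Ifnab, a type I interferon of the alpha family, had 5.92 and 5.27 RPKM in TCZ, 0 and 0.0587 RPKM in TC, and no counts in control. Its TCZ level was 201 times TC by the ratio of library-scaled counts, with a counting interval of 55.3 to 1671 because TC held 2 counts. Genes that interferons induce had another order: of 26 tested genes in a list of interferons and interferon-stimulated genes, 26 were higher in TC against control, and 24 were lower and 0 higher in TCZ against TC. None of that list's 34 genes, of which 13 were silent in control, was among the switched-on genes. Its summed level was 21.5 and 21.6 RPKM in TCZ, 138 and 134 RPKM in TC, and 16.6 and 16.3 RPKM in control.

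Beside Ifnab on chromosome 4 stood the predicted genes Gm13271 and Gm13286, within 67.8 kb (chr4:88690599-88758392). Gm13271 had 10.3 and 10.7 RPKM in TCZ, 2.76 and 2.87 RPKM in TC, and 0.0392 and 0 RPKM in control. Gm13286, 2.43 kb downstream of Gm13271 on the same strand, had 2.86 and 3.51 RPKM in TCZ, 0.845 and 1.29 RPKM in TC, and no counts in control. Both were higher in TCZ against TC (log2 fold changes 1.96 ± 0.26 SE and 1.61 ± 0.46 SE, edgeR adjusted p = 1.15e-06 and 0.00551), and unlike Ifnab both were already above control in TC. The deposited table gives these genes equal lengths of 549 bases, and how reads from near-identical copies were counted is unknown here, so their separate levels are uncertain.

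**Figure D3:**
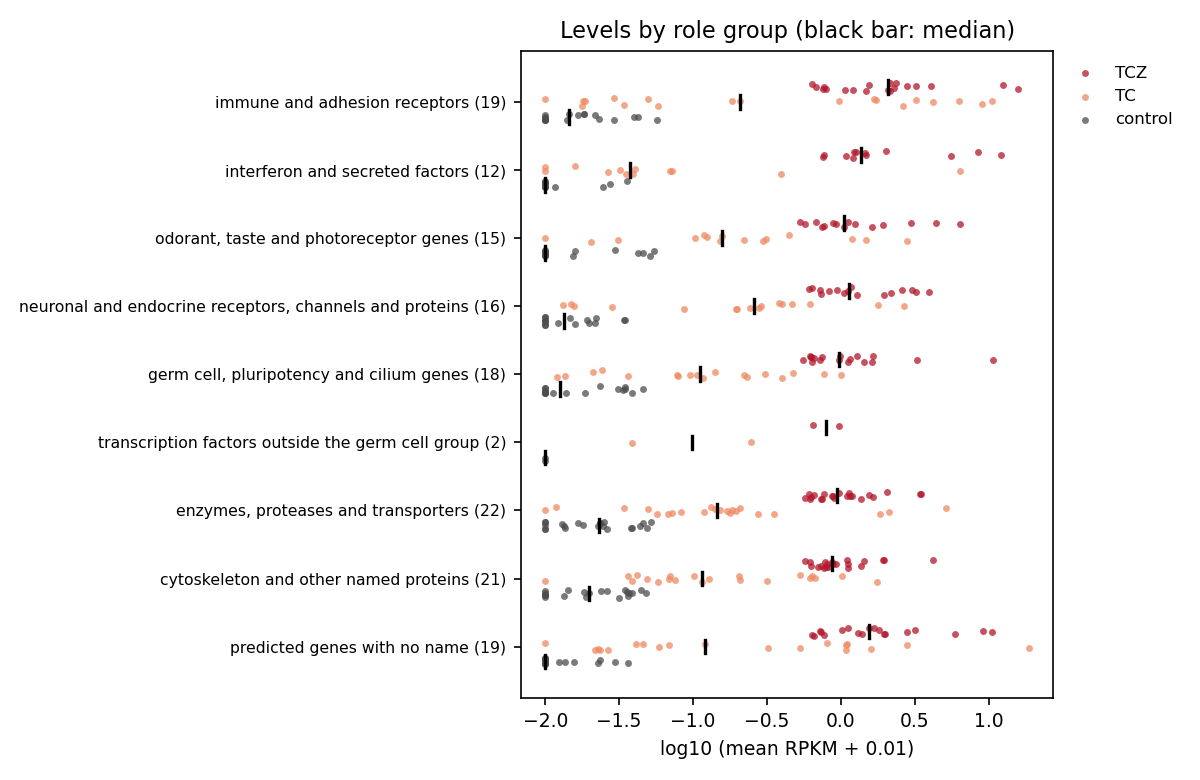
Mean RPKM of the 144 genes by role, as log10 after adding 0.01, with TCZ above TC and control in each row; points are genes, black bars are medians and numbers in brackets are genes per role. The immune and adhesion receptors had the highest TCZ median, 2.09 RPKM, and the interferon and secreted factors had the lowest TC median, 0.0274 RPKM.

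Genes for smell, taste and sight, counted together with the cold-sensing channel Trpm8, numbered 15. Olfr417, an odorant receptor, had 5.2 and 7.68 RPKM in TCZ, 2.84 and 2.75 RPKM in TC, and no counts in control. Olfr1389, another odorant receptor, had 3.63 and 5.12 RPKM in TCZ, 1.5 and 1.45 RPKM in TC, and no counts in control. Both receptors were thus on in TC, at least 69.7-fold and 42.4-fold above a control floor of 3 counts over the group, and were higher again in TCZ (log2 fold changes 1.24 ± 0.24 SE and 1.602 ± 0.28 SE, edgeR adjusted p = 0.000185 and 6.95e-05). Olfr1392 had 0.866 and 1.21 RPKM in TCZ and no count in TC or control.

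The photoreceptor genes Grk1 and Gucy2e had lower levels than these odorant receptors. Grk1, the rhodopsin kinase of rods, had 0.511 and 0.821 RPKM in TCZ, 0.149 and 0.143 RPKM in TC, and no counts in control. Gucy2e, a retinal guanylate cyclase, was the 1 gene called lower in TC against control, with 0.672 and 0.796 RPKM in TCZ, 0.00698 and 0.0136 RPKM in TC, and 0.0347 and 0.0301 RPKM in control (TC against control log2 fold change -1.51 ± 0.56 SE, edgeR adjusted p = 0.0245). That call rests on 9 counts in TC and 21 in control, and it is lost in several of the settings given further on. In the group of 15, 11 were higher in TC against control, and 13 were higher and 1 lower in TCZ against TC.

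Trpm8, the cold-sensing channel of sensory neurons, was the gene of that group that was lower. It had 0.67 and 0.85 RPKM in TCZ, 1.22 and 1.14 RPKM in TC, and 0.0106 and 0 RPKM in control (TCZ against TC log2 fold change -0.60 ± 0.24 SE, edgeR adjusted p = 0.0385). The adjusted p lay between 0.00907 and 0.195 over the alternatives and was 0.0981 by DESeq2, which ends the call. All 4 treated libraries were well above control, and both TC libraries were above both TCZ libraries.

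Receptors, channels and other proteins of neurons and endocrine cells numbered 16, of which 13 were higher in TC against control and 15 higher and 0 lower in TCZ against TC. Chrnb4, a subunit of nicotinic acetylcholine receptors, had 3.60 and 4.32 RPKM in TCZ, 1.79 and 1.76 RPKM in TC, and no counts in control. Chrna3, the partner subunit encoded beside it within 37.6 kb on chromosome 9 (chr9:55011343-55048953), had 0.884 and 1.21 RPKM in TCZ, 0.291 and 0.246 RPKM in TC, and no counts in control. The pair rose in TC and again in TCZ (TCZ against TC log2 fold changes 1.21 ± 0.13 SE for Chrnb4 and 2.00 ± 0.36 SE for Chrna3, edgeR adjusted p = 1.02e-07 and 7.01e-05). Chrna3 lay 1.6 kb downstream of Chrnb4 on the same strand. Whether Chrna3 reads come from transcription that ran on from Chrnb4 was not tested.

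Other genes of excitable cells had few counts outside TCZ. Scn4a, the voltage-gated sodium channel of skeletal muscle, had 2.01 and 2.31 RPKM in TCZ, 0.00691 and 0.00449 RPKM in TC, and no counts in control (TCZ against TC log2 fold change 8.54 ± 0.28 SE). Grm4, a metabotropic glutamate receptor, had 3.07 and 3.37 RPKM in TCZ, 0.0187 and 0.0183 RPKM in TC, and 0.00333 and 0.0461 RPKM in control (log2 fold change 7.46 ± 0.29 SE). Scn4a and Grm4 were at or below 0.05 RPKM in TC, so the rule fixed a large gap to TCZ and their calls are not read. The part of other markers of those tissues was not tested: 9 neural markers summed to 12.2 and 11.9 RPKM in TCZ, 5.21 and 6.35 RPKM in TC, and 23.1 and 22.1 RPKM in control, and 7 skeletal muscle markers summed to 89.9 and 92.0 RPKM in TCZ, 71.5 and 68.6 RPKM in TC, and 115 and 115.2 RPKM in control. Single markers did not all follow the sums: of 6 neural markers tested, 3 were higher and 1 lower in TC against control (median log2 fold change 1.71), and 2 were higher and 2 lower in TCZ against TC (median -0.54). Of 4 skeletal muscle markers tested, 1 was higher and 1 lower in TC against control (median 0.87), and 1 was higher and 0 lower in TCZ against TC (median 0.30).

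Genes of germ cells, pluripotent cells and cilia numbered 18, with 12 higher in TC against control and 16 higher and 1 lower in TCZ against TC. Ttc21a, a tetratricopeptide protein of cilia and sperm flagella, had 10.5 and 10.9 RPKM in TCZ, 0.0241 and 0.113 RPKM in TC, and 0.00514 and 0.0445 RPKM in control. It stood apart from its TC level by a log2 fold change of 7.32 ± 0.23 SE (edgeR adjusted p = 2.09e-16). Its TC and control libraries overlapped, and the call of TC against control, with a log2 fold change of 1.91 ± 0.70 SE (edgeR adjusted p = 0.0239), is 1.76 with an adjusted p of 0.228 by DESeq2, and 0.42 with an adjusted p of 0.709 without the second TC library; over the alternatives the adjusted p lay between 2.39e-05 and 0.709.

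Dppa3, a maternal factor of the early embryo encoded beside Gdf3 on chromosome 6 (the pair spans chr6:122605403-122630271), had 3.26 and 3.29 RPKM in TCZ, 0.148 and 0.024 RPKM in TC, and no counts in control. Piwil2, an Argonaute protein of the piRNA pathway, had 0.617 and 0.809 RPKM in TCZ, 0.183 and 0.0799 RPKM in TC, and 0.0134 and 0.0291 RPKM in control. Both were higher in TCZ against TC (log2 fold changes 5.26 ± 0.60 SE and 2.48 ± 0.36 SE, edgeR adjusted p = 2.55e-07 and 4.09e-06). These 2 were the switched-on members of a list of 40 germline and early embryo genes, of which 32 were silent in control. Of the 40, 11 were tested, with 4 higher and 0 lower in TC against control and 6 higher and 0 lower in TCZ against TC, and 10 had no count in any library.

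Regulators of pluripotent and early embryonic cells were also present at low levels. Zscan10 had 1.14 and 1.39 RPKM in TCZ, 0.00738 and 0 RPKM in TC, and 0 and 0.0273 RPKM in control. Klf17 had 0.915 and 1.04 RPKM in TCZ, 0.253 and 0.345 RPKM in TC, and no counts in control. Tfcp2l1 had 0.549 and 0.678 RPKM in TCZ, 0.191 and 0.231 RPKM in TC, and 0.0231 and 0.0481 RPKM in control. Klf17 and Tfcp2l1 thus stood between control and TCZ in TC, while Zscan10 was at the control level there. Hfm1, a helicase of meiotic recombination, was the gene of this group that was lower in TCZ, with 0.629 and 0.609 RPKM in TCZ, 0.991 and 0.998 RPKM in TC, and no counts in control (TCZ against TC log2 fold change -0.62 ± 0.20 SE, edgeR adjusted p = 0.0117, and 0.0527 without the second TC library in a range of 0.00449 to 0.0527).

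Pou3f1, a POU-domain transcription factor of neural and Schwann cell development, had 0.622 and 0.653 RPKM in TCZ, 0.335 and 0.137 RPKM in TC, and no counts in control. Its TCZ against TC log2 fold change was 1.48 ± 0.46 SE (edgeR adjusted p = 0.00952), and without the second TC library it was 0.97 with an adjusted p of 0.108, the highest of its alternatives (lowest 0.000983). It was the 1 gene of the set in a list of 77 developmental transcription factors, of which 29 were tested, with 14 higher and 6 lower in TC against control and 4 higher and 11 lower in TCZ against TC. Of the 77, 53 were silent in control.

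The 22 genes for enzymes, proteases and transporters were called higher in TC against control in 17 cases, and in TCZ against TC 20 were higher and 2 lower. Treh, which cleaves the sugar trehalose, had 3.12 and 3.83 RPKM in TCZ, 0.176 and 0.217 RPKM in TC, and 0.00987 and 0.0171 RPKM in control (TCZ against TC log2 fold change 4.18 ± 0.29 SE, edgeR adjusted p = 6.5e-11). Hhatl, a relative of hedgehog acyltransferase, had 0.573 and 0.666 RPKM in TCZ and no count in TC, at least 134-fold higher than a floor of 3 counts over the TC group. Treh rose in steps, while Hhatl had a single count outside TCZ, in a control library. Phldb1, on the opposite strand, is transcribed toward Treh across a gap of 0.003 kb. Its mean RPKM was 91.8 in TCZ, 79.0 in TC and 35.3 in control. The strand setting of the counting is unknown here, so the source of the Treh reads is uncertain.

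The lower pair of that group were Neurl3 and Slc5a5. Neurl3, an E3 ubiquitin ligase, had 1.19 and 1.18 RPKM in TCZ, 4.97 and 5.38 RPKM in TC, and 0.029 and 0 RPKM in control (TCZ against TC log2 fold change -2.07 ± 0.16 SE, edgeR adjusted p = 5.28e-10). Slc5a5, the iodide transporter of the thyroid, had 1.38 and 1.36 RPKM in TCZ, 2.01 and 2.19 RPKM in TC, and 0.00662 and 0.023 RPKM in control (log2 fold change -0.56 ± 0.19 SE, edgeR adjusted p = 0.0149). The call of Slc5a5 ended without the second TC library, with an adjusted p of 0.102 in a range of 0.00635 to 0.102 over the alternatives, and by DESeq2 (0.0584). Neurl3 and Madcam1, whose promoter windows held the κB letters shown above, were both among the 8 genes lower in TCZ than in TC. The other κB genes, Pcsk2 and Spem1, were not among those 8.

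The remaining named proteins, 21 in number and mostly of the cytoskeleton or unknown role, were higher in TC against control in 15 cases, and in TCZ against TC 17 were higher and 1 lower. Lsmem1, a single-pass membrane protein, had 3.21 and 5.16 RPKM in TCZ, 0.266 and 0.13 RPKM in TC, and 0.0177 and 0 RPKM in control (TCZ against TC log2 fold change 4.42 ± 0.41 SE, edgeR adjusted p = 7.42e-09). Adtrp, a membrane hydrolase of fatty acid esters of hydroxy fatty acids, had 1.09 and 0.757 RPKM in TCZ, 1.57 and 1.95 RPKM in TC, and 0.00624 and 0.0432 RPKM in control (log2 fold change -0.84 ± 0.24 SE, edgeR adjusted p = 0.00561). Strip2, part of a phosphatase and kinase complex, had 0.871 and 0.742 RPKM in TCZ, 0.708 and 0.554 RPKM in TC, and 0.0279 and 0.0484 RPKM in control, and its TCZ against TC change did not pass (0.42 ± 0.21 SE, edgeR adjusted p = 0.0896).

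Predicted genes without a name made up 19 of the 144 and held the highest TC level of the set. Gm40275 had 8.75 and 9.52 RPKM in TCZ, 18.7 and 19.0 RPKM in TC, and 0.0254 and 0 RPKM in control, and it fell in TCZ against TC (log2 fold change -0.99 ± 0.10 SE, edgeR adjusted p = 2.13e-08). It lay 1.63 kb downstream of LOC108167333 on the same strand, which had similar mean levels. These were 9.55 RPKM in TCZ, 18.5 RPKM in TC and 0.0601 RPKM in control. Whether the Gm40275 reads come from transcription of LOC108167333 was not tested. LOC105242417 had 5.10 and 6.76 RPKM in TCZ, 0 and 0.0255 RPKM in TC, and no counts in control, a ratio to TC of 458 with a counting interval of 126 to 3786. Gm17783 had 0.741 and 0.787 RPKM in TCZ and no count in TC, at least 36.5-fold higher than a floor of 3 counts over the TC group. The deposited table gives no function for these genes.

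Lists of genes from related pathways held few of the 144. The list of 33 innate immune and Fc receptors held Fcgr1 and Tlr13; of its 22 tested genes 13 were higher and 3 lower in TC against control, and 4 were higher and 9 lower in TCZ against TC. The lists of TNF superfamily ligands, interleukins outside the IL-1 family, activity-regulated genes, and mast cell, lymphoid and blood genes held none of the 144, but only genes silent in control could enter, and these were 9 of 17 ligands, 23 of 35 interleukins, 1 of 30 activity-regulated genes and 14 of 22 blood cell genes. The counts of these lists stand beside 31.5% of all tested genes higher and 29.1% lower in TC against control, and 28.2% higher and 27.9% lower in TCZ against TC. Of 30 tested activity-regulated genes, 26 were higher and 2 lower in TC against control, and 19 were higher and 7 lower in TCZ against TC. Of 10 tested TNF superfamily ligands, 4 were higher and 2 lower in TC against control, and 2 were higher and 4 lower in TCZ against TC. Of 16 tested interleukins, 7 were higher and 3 lower in TC against control, and 3 were higher and 5 lower in TCZ against TC. Of 8 tested blood cell genes, 5 were higher and 1 lower in TC against control, and 4 were higher and 0 lower in TCZ against TC.

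Of the other cell types, 9 endothelial markers summed to 12.4 and 12.7 RPKM in TCZ, 27.4 and 26.2 RPKM in TC, and 4.02 and 4.55 RPKM in control. For 8 epithelial markers the sums were 11.2 and 9.12 RPKM in TCZ, 56.7 and 51.9 RPKM in TC, and 14.3 and 13.3 RPKM in control. Each of these lists had 1 marker at or above 1 RPKM in every library and none at 0 in all of them. The sums were highest in TC, but single markers differed. Of 7 endothelial markers tested, 2 were higher and 1 lower in TC against control (median log2 fold change -0.57), and 4 were higher and 2 lower in TCZ against TC (median 1.01). Of 6 epithelial markers tested, 5 were higher and 0 lower in TC against control (median 2.75), and 0 were higher and 4 lower in TCZ against TC (median -2.52). Their part in the switched-on genes was not tested.

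Many of the switched-on genes lie next to an expressed gene that is transcribed toward them. A neighbour was counted when it lay within 10 kb, reached at least 2 RPKM in TCZ and was transcribed in the direction of the switched-on gene; the distance and the level were chosen after the data were seen, and the shares are descriptions. Of the 144 genes, 50 (34.7%) had such a neighbour, against 8.74% of 7673 control-silent genes not on in TCZ and 20.4% of all protein-coding genes. Neighbours transcribed away were found beside 14.6% of the genes, against 6.24% of silent genes not on in TCZ and 17.5% of all protein-coding genes. Neighbours transcribed toward the gene whose TCZ level was at least 2 times control were found beside 15.3% of the genes, 0.56% of the silent genes and 1.76% of all protein-coding genes. The neighbours of Cd79b, Gm13286, Chrna3 and Prr29 in that 15.3% were themselves switched-on genes. The rule sets their TCZ level above 2 times control, so they met this condition by construction.

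**Figure D4:**
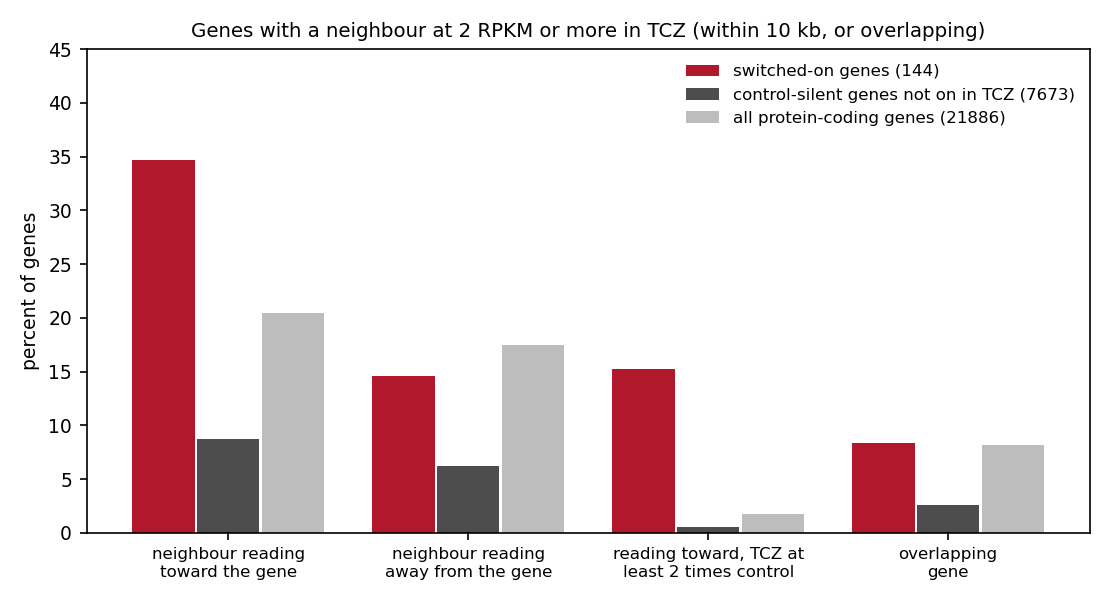
Percent of genes with a neighbour at or above 2 RPKM in TCZ, by the direction of the neighbour, for the 144 switched-on genes, 7673 control-silent genes not on in TCZ and 21886 protein-coding genes; bars start at 0 and the shares carry no test. Neighbours transcribed toward the gene stood beside 34.7%, 8.74% and 20.4% of these genes.

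The share with a neighbour transcribed toward them was 44.6% among the 74 genes at intermediate TC level, 28.9% among the 38 genes at or below 0.05 RPKM in TC and 18.8% among the 32 that were on in TC. Beside 46 genes stood a neighbour of this kind that was not itself in the set, and the median gap to the nearest was 2.11 kb. In all 46 that nearest neighbour's TCZ level exceeded that of the switched-on gene. The floor of 2 RPKM for neighbours leans toward this, since 49 of the 144 genes lay between 1 and 2 RPKM in TCZ and 62 between 0.5 and 1. In 40 of the 46 the nearest neighbour was already at or above 2 RPKM in control. The median levels of these nearest neighbours were 12.1 RPKM in TCZ, 16.02 RPKM in TC and 7.83 RPKM in control.

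Neighbours and switched-on genes did not always move together. Among 52 distinct neighbours, 22 (42.3%) were higher, 17 (32.7%) lower and 13 without a call in TCZ against TC, where 28.2% of all tested genes were higher and 27.9% lower. In TC against control, 32 of the 52 (61.5%) were higher and 10 (19.2%) lower, where 31.5% of all tested genes were higher and 29.1% lower. Of the 42 switched-on genes with such a neighbour that were higher in TCZ against TC, the nearest neighbour was higher beside 20, lower beside 11 and without a call beside 11. Fam71a, a testis gene, had 1.21 and 1.51 RPKM in TCZ, 0 and 0.0528 RPKM in TC, and no counts in control, and its neighbour Atf3, a stress-induced transcription factor 5.48 kb upstream, had 496 and 475 RPKM in TCZ, 118 and 122 RPKM in TC, and 1.25 and 1.38 RPKM in control. Atf3 was high in TC, where Fam71a had 6 counts and no call against control. Atf3 was higher in TCZ than in TC (log2 fold change 2.07 ± 0.07 SE, edgeR adjusted p = 1.45e-15). Fam71a was near the floor in TC, so the rule fixed a large gap to TCZ and its call is not read. Its TCZ against TC log2 fold change was 5.65 ± 0.65 SE.

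Serpinb10, a serine protease inhibitor, had 0.572 and 0.626 RPKM in TCZ, 0 and 0.0037 RPKM in TC, and 0 and 0.00701 RPKM in control. Serpinb2, its relative 3.39 kb upstream, had 119 and 125 RPKM in TCZ, 30.2 and 30.1 RPKM in TC, and 4.46 and 4.93 RPKM in control. Serpinb2 thus rose in steps, whereas Serpinb10 was at the floor in TC and control. Ttc21a was faced across 3.37 kb by Csrnp1, an immediate early gene on the opposite strand, with 86.9 and 82.3 RPKM in TCZ, 33.1 and 35.4 RPKM in TC, and 3.94 and 3.72 RPKM in control.

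Gm16486 lay 1.41 kb downstream of Jund, a subunit of AP-1, and had 1.18 and 1.41 RPKM in TCZ, 0.0152 and 0.00824 RPKM in TC, and 0.0018 and 0.00312 RPKM in control. Jund had 55.6 and 51.3 RPKM in TCZ, 13.3 and 15.1 RPKM in TC, and 19.4 and 18.0 RPKM in control, so that it was higher in TCZ and slightly lower in TC (log2 fold change in TC against control -0.26 ± 0.09 SE, edgeR adjusted p = 0.0162). Lsmem1 lay 3.81 kb downstream of Ifrd1, which had 762 and 759 RPKM in TCZ, 592 and 598 RPKM in TC, and 67.4 and 64.6 RPKM in control. Icam2 lay 9.5 kb downstream of Ern1, the stress sensor of the endoplasmic reticulum, which had 19.0 and 20.2 RPKM in TCZ, 15.1 and 15.5 RPKM in TC, and 5.92 and 5.96 RPKM in control. Ifrd1 and Ern1 were thus nearly as high in TC as in TCZ (log2 fold changes 0.41 ± 0.07 SE for both). By the ratio of library-scaled counts Lsmem1 was 20.4 times and Icam2 119 times higher in TCZ. The interval of the second from counting was 40.3 to 581. The rule chose both genes for their TCZ levels, so these ratios lean upward by construction. Icam2 was at or below 0.05 RPKM in TC, so the rule fixed a large gap to TCZ. Whether reads of these genes come from transcription that ran on from the neighbour was not tested.

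**Figure D5:**
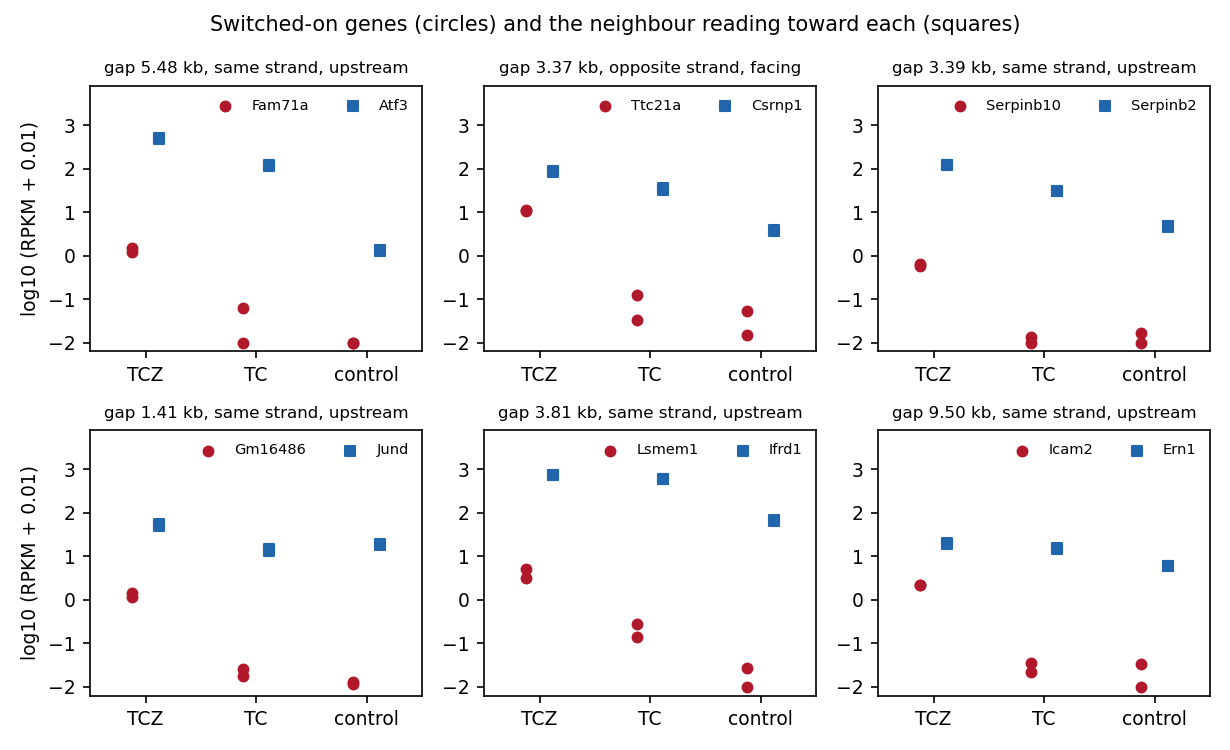
RPKM in each library, as log10 after adding 0.01, of 6 switched-on genes (circles) and the neighbour transcribed toward each (squares); the panel titles give the gap and the arrangement. In every panel the neighbour lay above the switched-on gene as with Fam71a (1.21 and 1.51 RPKM in TCZ) and Atf3 (496 and 475 RPKM in TCZ).

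The genes lay on 20 chromosomes, with 17 on chromosome 11, 14 on chromosome 1 and 12 each on chromosomes 2 and 9. In 16 places 2 or more of them stood with gaps under 100 kb, which took in 38 genes. Neither these places nor the chromosome counts were set against those of other genes, so they are descriptions only. The largest such place held Cd79b, Scn4a, Prr29 and Icam2 within 76.8 kb (chr11:106311341-106388123). Cd79b lay 2.98 kb downstream of Scn4a on the same strand. Prr29, a proline-rich protein, had the lowest levels of the 4, with 0.508 and 0.939 RPKM in TCZ and no count in TC or control. In TC the 4 genes together were at or near 0, with Scn4a highest in counts at 5. Gdf3 and Dppa3 on chromosome 6 likewise had 0 and 7 counts in TC, whereas Chrna3 and Chrnb4 on chromosome 9 had 84 and 731.

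The strand setting of the counting is unknown here, so the source of reads where genes overlap is uncertain. An expressed gene overlapped 12 of the 144 genes (8.33%), against 2.57% of silent genes not on in TCZ and 8.18% of all protein-coding genes. They included Lsmem1, Clec1b, which overlaps Clec12b on the opposite strand, Gif, Nefh, Tll2, Acpt, Tsga13, Hpca, Slc3a1, Acmsd and Cfap73. For Tll2 the overlapping gene lies on the same strand: Tm9sf3, with a mean of 83.3 RPKM in TCZ, 91.2 RPKM in TC and 75.8 RPKM in control. Tm9sf3 was thus expressed in control, where Tll2 was silent. The genes overlapping Nefh, Acpt, Slc3a1 and Cfap73, on the opposite strand, were also expressed in control (12.5 to 18.0 RPKM). Other overlapping genes on the opposite strand were low in control. Mean RPKM in TCZ, TC and control was 22.4, 8.82 and 0 over Tsga13, and 3.88, 0.111 and 0.129 for Tmem54 over Hpca. It was 3.50, 0.0336 and 0.0734 over Gif, 2.12, 0.623 and 0.0511 over Lsmem1, and 2.21, 0.725 and 0.283 over Acmsd. Whether overlapping genes supplied reads was not tested.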

How the data were processed

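The 144 genes and all lists, roles, windows and thresholds used here were chosen with earlier results of these data known. The table deposited by the authors holds, per the file headers, raw counts and RPKM of each gene in the 6 libraries; RPKM recomputed from counts, gene length and library total differed by at most 5e-07. The submitters' processing notes name HISAT2 2.1.0, HTSeq, bcl2fastq and build mm10, with no strand setting. Coordinates are those of the table. RPKM, which allows for gene length, gave levels. Counts were tested in R 4.3.3 with edgeR 4.0.16 (quasi-likelihood, TMM, filterByExpr with minimum count 10, all 6 libraries in one fit with group as the only factor) and Benjamini-Hochberg adjustment over 18563 genes at a threshold of 0.05, in TC against control and TCZ against TC; TCZ against control chose the genes and was not tested. The fit was tested on simulated data. Named genes were the 15 highest in TCZ, the 8 largest changes each way in TCZ against TC, members of the lists, and the 4 genes on each side of each threshold; others were named after their values were seen. Counting intervals are at 95% and, like floors of 3 counts over a group, cover counting error only. Library totals of 24922627 to 52909926 counts set the precision: a gene of median length at 0.5 RPKM had about 67.6 counts in TCZ 1. Whether replicate numbers pair libraries is unknown here, and the main fit did not pair them. Alternatives used DESeq2 1.42.0 and limma 3.58.1. One overlapping gene is not reported here.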

Additional observations from a re-analysis of the deposited data

How the results depend on the processing

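Precision was limited by 2 libraries a group and by low counts: most of the genes had few or no counts in TC or control. The number of genes called higher lay between 73 and 101 in TC against control (98 as reported) and between 88 and 127 in TCZ against TC (123 as reported) over all alternatives; the lowest of each came from fits or filters that tested fewer of the genes, 76 and 103. The 1 gene lower in TC against control, Gucy2e, was lost (0) with limma-voom, with only the 2 groups compared, and without control 1 or TC 1, so leaving out 1 library gave 0 to 1. The 8 genes lower in TCZ against TC became 3 when a log2 change of 1 or more was also asked for, and ran between 5 and 8 without 1 library each; 5 remained without TC 2. With a TCZ threshold of 0.25 RPKM the rule gave 257 genes, and with 1 RPKM it gave 71. With the replicate number as a block, 99 genes were higher and 1 lower in TC against control, and 124 higher and 8 lower in TCZ against TC; the correlations of same-numbered deviations (0.012 for TC and control, -0.020 for TCZ and TC, 0.105 for TCZ and control) did not show that the numbers pair the libraries. Leaving out the shallower control 2 and TCZ 2 together gave 90 higher in TC against control and 118 higher in TCZ against TC. Of the values of named genes under the alternatives, 1207 kept their status, 42 lost a call and 3 gained one. None changed direction while called. The status is a call or no call, so the 1207 include values with no call in either fit. Alternatives that gave a gene no adjusted p are not counted. DESeq2 gave 95 and 112 genes higher.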
